A study of Mus musculus with 6 samples.

Results

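Ifng, the gene of the cytokine interferon gamma, was followed together with Tmevpg1, a long noncoding RNA transcribed from the opposite strand next to it, and Mdm1, a protein-coding gene farther along the same stretch of mouse chromosome 10. The members are the 4 array probes that carry these 3 gene names, of 39429 probes on the array; all 3 genes are among the 16413 genes with enough signal to be tested. They were chosen because earlier results from these arrays had shown a difference at this locus, so their own differences are given as a description, without a test. Tests are given only for other genes: those of the locus, of lists around interferon gamma and other cytokines, Eomes and markers of cell types. The lists and named genes were also chosen with earlier results of these arrays known. Their counts and p-values are therefore not independent of those results.

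Both groups of cells came from the spleens of Eomes-IRES-GFP reporter mice (allele Eomestm1.1Twa) on a C57BL6 background, in which the green fluorescent protein GFP is made from the Eomes transcript. B220+, CD4+ and CD8β+ cells had been depleted before sorting. From the remaining cells, CD3+ TCRγδ+ TCRβ- γδ T cells were sorted by flow cytometry as GFP+, called Eomes+ here, or GFP-, called Eomes- here. There were 3 arrays per group from 3 independent sorts, each of which pooled 4 to 6 spleens, with the mice aged 9, 9.5 and 7.5 weeks in sorts 1, 2 and 3. All 6 arrays were 1-colour and each was hybridised with RNA amplified from 9 ng in sorts 1 and 2 or 4 ng in sort 3. A level below is a probe's log2 signal minus the 75th percentile of all probes on its array, and a difference is the level in Eomes+ minus the level in Eomes- cells.

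Interferon gamma is a secreted cytokine of T cells and natural killer cells that binds a receptor of the chains IFNGR1 and IFNGR2. In lymphocytes its gene is controlled by the T-box factors T-bet (Tbx21) and Eomes, by STAT4 downstream of interleukin 12, and by distant elements that loop to the promoter. Tmevpg1, also called NeST or Ifngas1, is known as a noncoding RNA that binds WDR5, a subunit of histone methyltransferase complexes, and that raises Ifng transcription in T cells.

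The Ifng probe lies on the plus strand at chr10:117882841-117882900 of the mm9 build, and the Tmevpg1 probe on the minus strand at chr10:117948533-117948592, which is 65.7 kb away. In the RefSeq gene order of build GRCm38.p6, 0 annotated features lie between Ifng and Ifngas1. Of the 16 features between Mdm1 and Ifngas1, 3 had a probe on the array. The letters of the Tmevpg1 probe are shown because the RNA was read through this single 60-base stretch, which was designed to an expressed sequence tag and has 35.0% GC. They are given in the direction in which the scanner files list them.
Tmevpg1 probe: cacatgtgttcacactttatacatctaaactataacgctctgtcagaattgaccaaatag

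The 250 bases before each annotated start are shown because the sorted cells differed in a T-box factor. They come from the RefSeq promoter table (GRCm38.p6, so these positions cannot be set beside the mm9 probe positions), on the strand of each gene, and a promoter was found there for 3 of the 3 members. Capitals mark TCACAC, the core letters bound by T-box factors, and TATAAA, the TATA box. The Ifng stretch is chr10:118440796-118441045 on the plus strand, and the Ifngas1 stretch is chr10:118556526-118556775 on the minus strand.
Ifng upstream: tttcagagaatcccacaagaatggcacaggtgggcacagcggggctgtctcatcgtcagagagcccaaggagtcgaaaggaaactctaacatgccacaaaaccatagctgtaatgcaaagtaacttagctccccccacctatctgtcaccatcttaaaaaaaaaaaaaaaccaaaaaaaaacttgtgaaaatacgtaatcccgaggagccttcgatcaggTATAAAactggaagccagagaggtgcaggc
Ifngas1 upstream: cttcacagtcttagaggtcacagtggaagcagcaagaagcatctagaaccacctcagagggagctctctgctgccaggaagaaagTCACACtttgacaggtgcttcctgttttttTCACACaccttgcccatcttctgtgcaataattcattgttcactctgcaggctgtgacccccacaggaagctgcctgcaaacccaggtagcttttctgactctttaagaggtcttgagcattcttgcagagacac

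Searched on both strands, TCACAC occurred 2 times before Ifngas1, at bases 165 to 160 and 135 to 130 before the start, and 0 times in the stretches of Ifng and Mdm1. At least 1 match was found in 12.3% of 32851 promoters of the same length, and 2 or more in 0.998%. TATAAA occurred 1 time before Ifng, 30 to 25 bases before the start, against 12.4% of promoters with a match. The STAT palindrome TTCNNNGAA occurred 1 time, 249 to 241 bases before the Ifng start, against 7.02% of promoters. The Runx core TGTGGT (14.0% of promoters) and the AP-1 letters TGANTCA (6.75%) were in none of the 3 stretches. The Ifng stretch held 6 CpG sites and the Ifngas1 stretch 0, while the Mdm1 stretch held 20, against a median of 6 over all promoters. These matches are descriptions of letters and do not show that a factor binds there.

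Ifng was detected in both populations and was higher in Eomes+ cells in each sort. In Eomes- cells its level was 0.27 in sort 1, 0.06 in sort 2 and 0.31 in sort 3. In Eomes+ cells it was 1.01, 0.59 and 1.15 in the same sorts. The groups did not overlap, since the lowest Eomes+ array lay 0.28 above the highest Eomes- array, and in both groups sort 2 was the lowest array. The group means were 0.91 ± 0.29 (SD, n = 3) in Eomes+ and 0.22 ± 0.13 (SD, n = 3) in Eomes- cells. The difference was 0.70 (SE 0.19), which is 1.62-fold, and within sorts it was 0.73, 0.53 and 0.84, or 1.66-, 1.44- and 1.79-fold. With the sort as a block, which cannot change the difference in a balanced design, the SE was 0.107.

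Ifng was well above background on every array. Of its 24 spots, 4 on each array, 24 were well above background, 0 were saturated and 1 was set aside as an outlier. The SD among the spots of an array ran from 0.028 to 0.062. In each of the 3 sorts the lowest Eomes+ spot exceeded the highest Eomes- spot. In sort 2, the sort with the smallest difference, these values were 0.56 and 0.12. Sort 2 was also the only sort whose Eomes+ and Eomes- arrays lay on different slides, and the part of the slide was not tested. In the authors' deposited table, scaled by them to a linear intensity, Ifng was 1811, 1573 and 1822 in Eomes- and 3016, 2253 and 3330 in Eomes+ cells of sorts 1, 2 and 3.

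**Figure D1:**
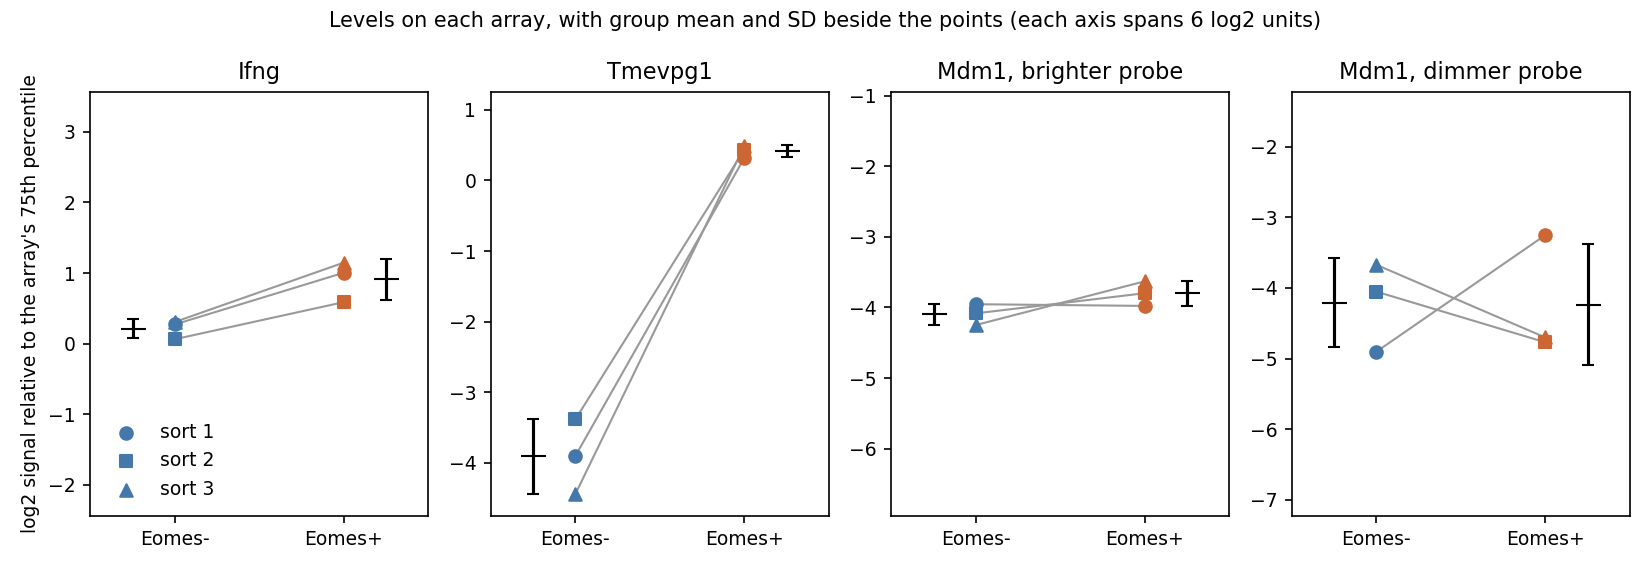
Level of each member probe on each of the 6 arrays, as log2 signal relative to the array's 75th percentile, with lines joining the arrays of a sort and bars for the group mean ± SD of 3 arrays. Each panel has its own axis of the same span, as levels of different probes are not comparable. Ifng and Tmevpg1 separate by group, Ifng by 0.70 and Tmevpg1 by 4.32 in the mean, while the lines of both Mdm1 probes cross.

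Tmevpg1 stood much farther apart than Ifng. In Eomes- cells its level was -3.90 in sort 1, -3.38 in sort 2 and -4.44 in sort 3. In Eomes+ cells it was 0.32, 0.44 and 0.49. The lowest Eomes+ array was 3.70 above the highest Eomes- array. The means were 0.42 ± 0.087 (SD, n = 3) in Eomes+ and -3.91 ± 0.53 (SD, n = 3) in Eomes- cells, a difference of 4.32 (SE 0.28) or 20.03-fold. Within sorts the difference was 4.22, 3.82 and 4.93, which is 18.6-, 14.1- and 30.5-fold. The 3 Eomes+ arrays spanned 0.17 for Tmevpg1 and 0.56 for Ifng, whereas the 3 Eomes- arrays spanned 1.06 and 0.24.

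The low end of Tmevpg1 was close to the background of the arrays. A probe is called measured where the scanner software marked 50% or more of its 4 spots as well above background. Tmevpg1 was measured on 5 of 6 arrays, with 4 of 4 spots on each of those. On the Eomes- array of sort 3, made from the smaller amount of RNA, 0 of 4 spots were well above background, so the fold of that sort includes signal that was not well above background. The mean spot intensity was 115, 162 and 25.7 in Eomes- cells of sorts 1, 2 and 3, and 1974, 2174 and 750 in Eomes+ cells. In the authors' deposited table the values were 90, 141 and 63 in Eomes- and 1922, 2028 and 2107 in Eomes+ cells. Without the Eomes- array of sort 3 the difference was 4.06. With normexp background correction, which raises dim signals, it was 3.22.

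**Figure D2:**
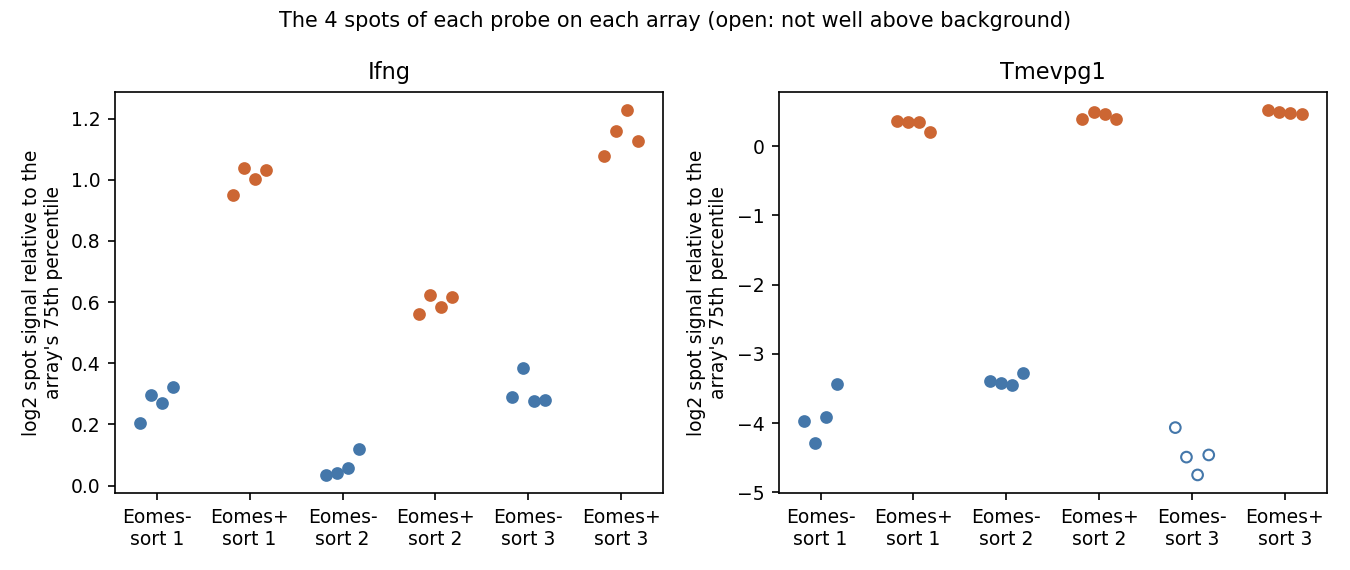
Level of each of the 4 spots of the Ifng and Tmevpg1 probes on each array, as log2 signal relative to the array's 75th percentile, with open circles for spots not well above background. The Eomes+ spots lie above the Eomes- spots in every sort for both probes, and the 4 open circles are the Tmevpg1 spots of the Eomes- array of sort 3.

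Ifng and Tmevpg1 thus moved in the same direction by unequal amounts. The Tmevpg1 difference exceeded the Ifng difference by 3.49, 3.30 and 4.09 on the log2 scale in sorts 1, 2 and 3. The value of sort 3 rests on the Eomes- array where Tmevpg1 was not well above background. Non-overlapping groups with Eomes+ higher were found for 2 of these 3 members and for 8.53% of all genes tested, and with Eomes+ lower for 0 members and 9.68% of all genes. A higher level in all 3 sorts was found for the same 2 members and for 25.3% of all genes. The members were chosen on this contrast, so nothing is read from these counts. Across all genes tested, 94.5% had a smaller difference than Ifng, and 99.87% a smaller one than Tmevpg1. Since these are bulk samples, a higher share of cells with the transcript and more transcript per cell cannot be told apart.

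Mdm1, which encodes a microtubule-binding protein of the centriole, had 2 dim probes that disagreed. The brighter probe, at chr10:117605934-117605993 (mm9, plus strand), read -3.95, -4.08 and -4.25 in Eomes- cells of sorts 1, 2 and 3. It read -3.98, -3.80 and -3.63 in Eomes+ cells, so the groups overlapped. Its difference was 0.29 (SE 0.16), from means of -3.80 ± 0.17 and -4.10 ± 0.15 (SD, n = 3 each). By sort the difference was -0.02, 0.29 and 0.62.

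The other Mdm1 probe, at chr10:117585130-117585189 (mm9, plus strand), read -4.90, -4.05 and -3.67 in Eomes- cells and -3.25, -4.77 and -4.70 in Eomes+ cells. Its difference by sort was 1.65, -0.72 and -1.03, with a mean of -0.03. The sign changed between sorts even though the Eomes+ and Eomes- spots were apart in each of the 3 sorts. Each probe was measured on 5 of 6 arrays. No direction is therefore given for Mdm1. The brighter probe alone moved between 0.04 and 0.62 across the alternative settings, apart from the setting that averaged both probes.

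The other features of the locus that carry a probe were compared next, since they are the nearest genes whose values had not been used to choose the members. Il22 encodes the cytokine interleukin 22. Its probe also lists transcripts of the near-identical copy Iltifb, so its signal cannot be assigned to one of them. It lies at -240.0 kb from the Ifng probe, was measured on 3 of 6 arrays, and differed by 0.08 (SE 0.21, limma adjusted p = 0.980). Both Iltifb probes were measured on 0 arrays and were not tested. An array feature named NAP112388-1, which carries no gene name, lies at -207.4 kb and differed by 0.18 (SE 0.19, limma adjusted p = 0.904). Its differences by sort were -0.03, 0.15 and 0.43. Of the 2 features tested with limma, 0 passed, against 2.77% of all genes tested that passed in either direction. An unadjusted p under 0.05 was found for 0 of the 2 features and for 2009 of all 16413 genes. Counts of 0 among 2 features do not show that the neighbours were unchanged.

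**Figure D3:**
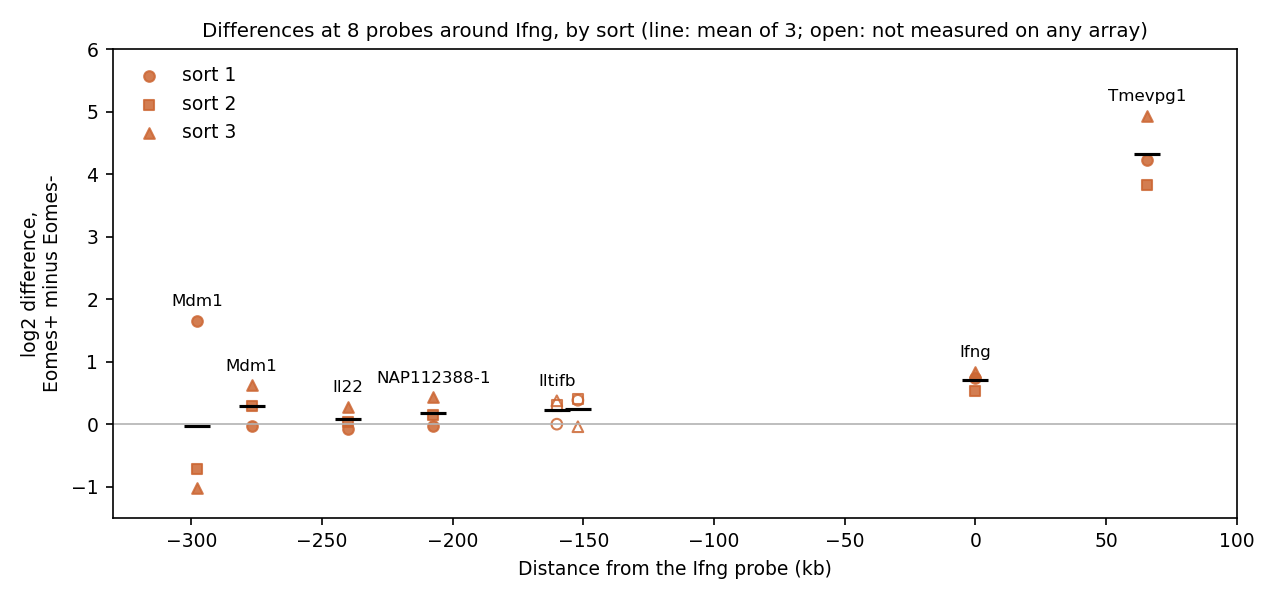
Difference in log2 signal between Eomes+ and Eomes- cells in each sort at 8 probes, against the distance from the Ifng probe in kb, with a line for the mean of 3 sorts. Open symbols mark the 2 Iltifb probes, which were not measured on any array and are drawn 4 kb to each side of their place so that both can be seen. The differences at Ifng lie between 0.53 and 0.84 and those at Tmevpg1, 65.7 kb away, between 3.82 and 4.93, while the dimmer Mdm1 probe runs from -1.03 to 1.65.

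The genes that act on Ifng and Tmevpg1 or respond to interferon gamma were then read in 7 lists. Eomes, whose reporter defined the sort, was first checked and read 0.72, 0.88 and -1.14 in Eomes- and 5.31, 4.96 and 4.48 in Eomes+ cells of sorts 1, 2 and 3. The groups did not overlap, and Eomes rose by 4.76 (SE 0.59, limma adjusted p = 0.0178). Over the union of the 7 lists, without Eomes and the members, 124 of 135 genes were tested with limma. Of these, 4 were higher in Eomes+ cells, against 1.2% of all genes tested, and 7 were lower, against 1.57%. Blocked by sort, the fit called 7 higher and 16 lower, while calls over all 16413 genes tested rose from 454 to 1310. The blocked counts of the lists and cell markers below stand beside that rise. The median difference of the 124 genes was -0.0024, beside -0.013 for all genes.

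Among the transcription factors that favour Ifng, 1 of 19 tested genes rose and 0 fell, against 1.2% and 1.57% of all genes tested. The list median was 0.12. The gene that rose was Tbx21, which encodes T-bet. It read 2.18, 2.26 and 2.38 in Eomes- and 3.42, 3.09 and 3.66 in Eomes+ cells, and the groups did not overlap. Its difference was 1.12 (SE 0.19, limma adjusted p = 0.0447). The call was lost with scaling to the median of the array (adjusted p = 0.106) and without the filter on dim probes (0.148). Blocked by sort, 2 rose and 1 fell.

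Among the signals that induce Ifng, 2 of 26 tested genes rose and 1 fell, against 1.2% and 1.57% of all genes tested. The list median was 0.15. Stat4, the factor activated by interleukin 12, rose by 1.01 (SE 0.18, limma adjusted p = 0.0499), just inside the threshold. It was lost in 4 of the 12 alternatives that kept all arrays, namely median scaling (adjusted p = 0.152), the mean of all probes (0.0525), no filter on dim probes (0.179) and the slide as a fixed block (0.0835). Il2rb, the receptor chain for interleukins 2 and 15, rose by 1.42 (SE 0.16, limma adjusted p = 0.0140), with an adjusted p of 0.0522 without the filter on dim probes. Il18r1, the interleukin 18 receptor chain, fell by 1.75 (SE 0.28, limma adjusted p = 0.0415), with adjusted p = 0.105 under median scaling and 0.0934 without the filter on dim probes. Its level was 3.32, 3.13 and 3.31 in Eomes- and 1.89, 0.90 and 1.72 in Eomes+ cells, so the receptor chain was lower where Ifng was higher. Il12rb2, the inducible chain of the interleukin 12 receptor, differed by 0.31 (SE 0.18, limma adjusted p = 0.663) at its brighter probe. Its other probe, measured on 3 arrays, differed by 1.24 and was not tested, so the probes disagree in size.

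In the receptor and signalling chain of interferon gamma, 0 of 11 tested genes rose and 2 fell, against 1.2% and 1.57% of all genes. The list median was 0.06. Ifngr2, the signalling chain of the receptor, read 0.89, 1.04 and 0.78 in Eomes- and -2.80, -0.94 and -2.60 in Eomes+ cells. It fell by 3.01 (SE 0.51, limma adjusted p = 0.0442), and the groups did not overlap. Without the filter on dim probes its adjusted p was 0.0825. Ifngr1, the ligand-binding chain, differed by -0.01 (SE 0.16, limma adjusted p = 0.997). Socs3, a feedback inhibitor of cytokine signalling, fell by 1.87 (SE 0.26, limma adjusted p = 0.0252), with adjusted p = 0.0508 under median scaling and 0.0615 without the filter on dim probes. Blocked by sort, 3 fell.

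Of the genes that interferon gamma induces, 0 of 31 rose and 1 fell, against 1.2% and 1.57% of all genes tested. The list median was -0.14. The lower gene was Gm4951, an interferon-inducible GTPase, which fell by 1.44 (SE 0.24, limma adjusted p = 0.0436). It was lost in 7 of the 12 alternatives that kept all arrays, among them the sort block (adjusted p = 0.0522), quantile normalization (0.070), median scaling (0.104) and normexp background correction (0.133, difference -1.07). With that block, 1 gene of the list rose and 3 fell.

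In the list of partners of the noncoding RNA and loop factors, 0 of 12 genes passed, 0 had an unadjusted p under 0.05, and 0 passed in the fit blocked by sort. Of all 16413 genes tested, 454 (2.77%) passed, 2009 had an unadjusted p under 0.05, and 1310 passed blocked by sort. Beside these shares, counts of 0 among 12 genes do not show that the partners were unchanged. The differences of the 12 genes ran from -0.30 to 0.27, with a median of 0.06. Wdr5, the partner of Tmevpg1, read 1.56, 1.41 and 1.49 in Eomes- and 1.60, 1.40 and 1.59 in Eomes+ cells, and differed by 0.05 (SE 0.14, limma adjusted p = 0.986). Rad21 and Smc1a, subunits of the loop-forming cohesin ring, differed by 0.08 (SE 0.18, limma adjusted p = 0.979) and -0.06 (SE 0.29, limma adjusted p = 0.993).

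The factors of other cytokine programmes held 0 genes that rose and 3 of 15 that fell, against 1.2% and 1.57% of all genes tested. The list median was -0.17. Zbtb16 encodes PLZF, a factor of innate-like T cells, and fell by 3.83 (SE 0.22, limma adjusted p = 0.0019). Maf, a factor of interleukin 17-producing γδ T cells, fell by 2.93 (SE 0.28, limma adjusted p = 0.0079). Rora, which encodes a partner of RORγt, fell by 2.23 (SE 0.27, limma adjusted p = 0.0155). Blocked by sort, 1 rose and 4 fell.

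Among other cytokine genes, 1 of 13 tested rose and 0 fell, against 1.2% and 1.57% of all genes tested. The list median was -0.05. Blocked by sort, 1 rose and 4 fell. Xcl1, a chemokine that attracts dendritic cells, rose by 1.69 (SE 0.21, limma adjusted p = 0.0167). Il17a, Il10, Il5, Il13 and Il21 were measured on fewer than 3 arrays and were not tested.

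Most of these calls were lost with fewer arrays. Over all genes tested, 0 were called without sort 1 or without sort 2, and 69 without sort 3, beside 454 with all arrays. A loss without sort 1 or sort 2 was therefore shared by every gene. With 1 array left out, 154 to 258 of all genes were called. Of the 9 fits that left out 1 sort or 1 array, Tbx21, Stat4, Socs3 and Gm4951 passed in 0, and Il2rb, Il18r1 and Ifngr2 passed in 1, that without the Eomes+ array of sort 2. Eomes passed in 3, those without sort 3 or without its Eomes- array or that of sort 2. Rora passed without the Eomes+ array of sort 1 or the Eomes- array of sort 3, and Xcl1 without the Eomes+ array of sort 2 or of sort 3. Zbtb16 passed in 7 and was lost without sort 1 or sort 2, and Maf passed in 6 and was lost without any 1 of the 3 sorts. In all 9 fits each of these genes kept its direction.

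**Figure D4:**
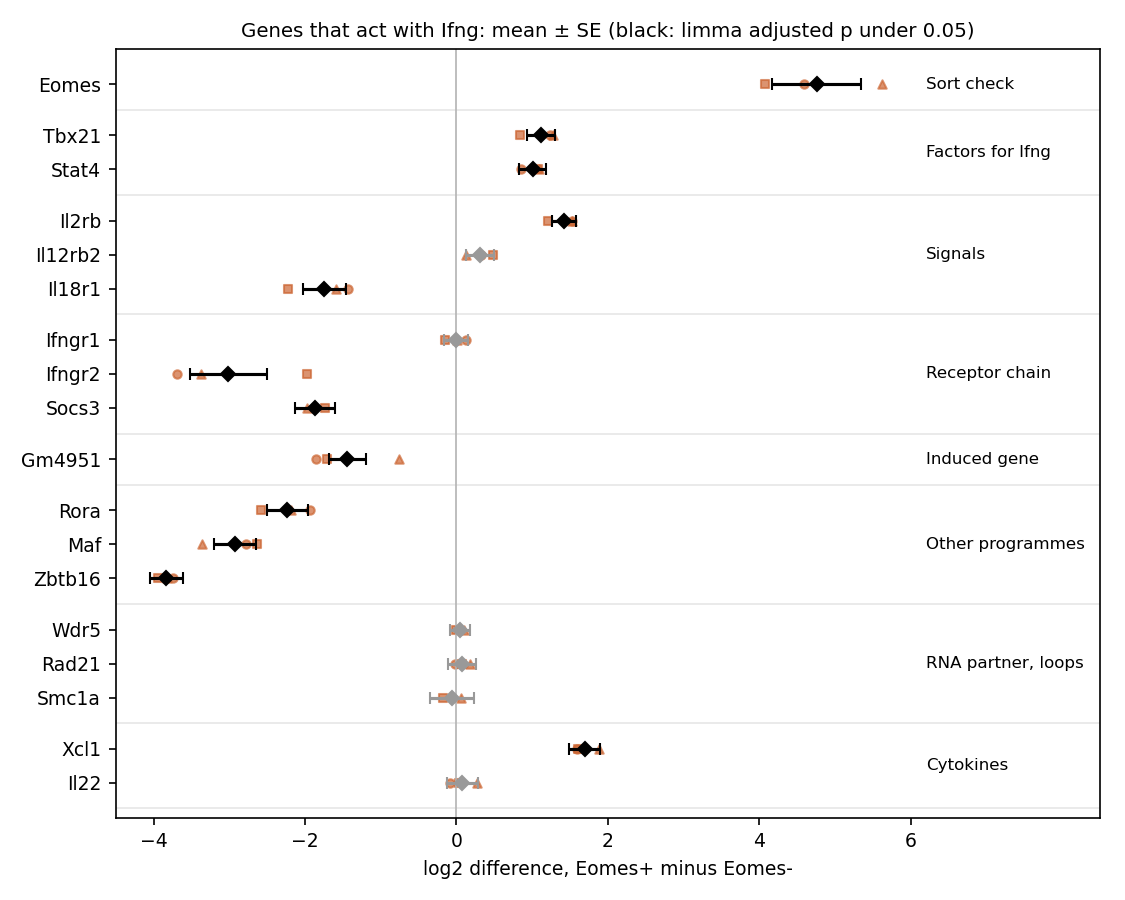
Difference in log2 signal between Eomes+ and Eomes- cells for named genes of the lists, as mean ± SE from limma, with small symbols for the 3 sorts. Black marks an adjusted p under 0.05 and grey the rest. Tbx21, Stat4 and Il2rb lie to the right of 0 with Eomes, and Il18r1, Ifngr2 and Socs3 to the left.

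The genes with a profile most like Ifng were sought over the 6 arrays among 10236 genes. These were measured on all 6 arrays and named by RefSeq accession, with names of predicted genes and clones left out. Likeness was the smallest root mean square distance between levels centred on each gene's mean. Stk39, a kinase that regulates ion transport, was nearest at 0.068, followed by Fbxo9, an F-box protein, at 0.089 and Ubqln4, a ubiquilin, at 0.090. Their differences were 0.76, 0.70 and 0.62, beside 0.70 for Ifng. Selection by this distance over the same arrays keeps these differences near that of Ifng, so nothing is read from them. The median distance over all genes compared was 0.466. Tmevpg1 lay 1.86 from Ifng by the same measure, which reflects sizes as well as shapes, and was not given nearest genes because it was not measured on all 6 arrays.

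The sort itself was checked with markers of the cells it should and should not hold. Beside the counts of markers called, 1.2% of all genes tested were higher and 1.57% lower. Of 9 T cell markers 5 had a probe, and Cd3d, Cd3e, Cd3g, Cd247 and Tcrg-V1 were measured on all 6 arrays, with a summed linear level of 258 to 326 in Eomes+ and 271 to 343 in Eomes- cells. The 10 markers of NK cells and type 1 innate lymphoid cells, of which 6 were measured on all arrays and 0 on none, summed to 23.9, 66.3 and 29.7 in Eomes+ cells of sorts 1, 2 and 3 and to 14.0, 58.4 and 10.6 in Eomes- cells. They were higher in Eomes+ cells in each sort, as Ifng and Tmevpg1 were, with 1 called higher (Styk1), 0 called lower and a median difference of 0.84; blocked by sort, 2 rose and 1 fell. In both groups this sum was highest in sort 2, as was the sum of the myeloid markers below. Whether cells other than NK cells gave part of it was not tested. The part of the NK cell markers in the Ifng and Tmevpg1 differences was not tested either.

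Markers of αβ T cells summed to 2.31 to 2.55 in Eomes+ and 6.37 to 9.24 in Eomes- cells, with 1 of 4 tested called lower (Cd8b1) and Cd40lg measured on no array; blocked by sort, 2 were called lower (Cd8b1 and Foxp3). The 8 B cell markers summed to 7.13 to 10.9 and 14.5 to 17.4, with 0 called and Ighm measured on no array; blocked by sort, 1 was called lower (Cd79b). Both sums were lower where Ifng was higher, and their part in the result was not tested. The 10 myeloid markers summed to 293 and 300 on the Eomes+ and Eomes- arrays of sort 2 and to between 16.7 and 40.5 on the other arrays, with 0 called between the groups. Without sort 2 the Ifng difference was 0.79 and the Tmevpg1 difference 4.58.

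**Figure D5:**
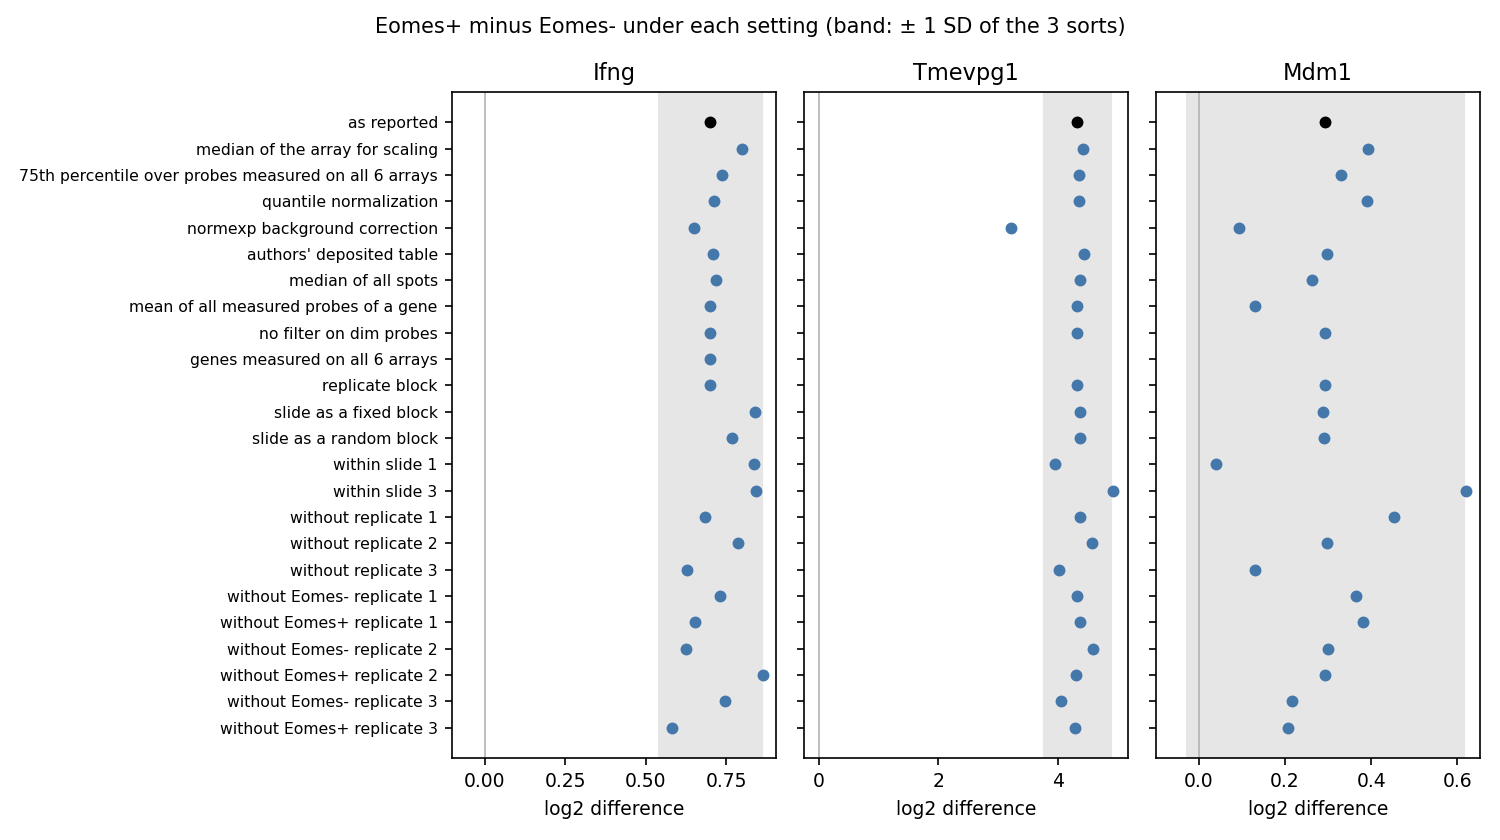
Difference in log2 signal for Ifng, Tmevpg1 and the brighter Mdm1 probe as reported (black) and under each alternative setting (blue), with a band of ± 1 SD of the 3 sort differences around the reported value. Ifng runs from 0.58 to 0.86, Tmevpg1 from 3.22 to 4.93 and Mdm1 from 0.04 to 0.62. Some of the settings could not change a value. Under the mean of all measured probes of a gene, the Mdm1 value takes in both of its probes.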

How the data were processed

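Each sample is total RNA of sorted spleen γδ T cells on 1 one-colour Agilent array. Per the file headers, Feature Extraction 10.7.3.1 (also in the submitters' processing notes) made the processed intensities, background-subtracted and not normalized between arrays. The scanner files deposited by the authors also hold other columns, which flag a spot with 0 or 1 as well above background, as saturated and as an outlier. The authors' deposited value table holds linear intensities scaled to a 75th percentile of 1497 to 1506; how it was summarised is not given in the sources used here.

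After removal of outlier spots, log2 of the deposited intensity was averaged over a probe's 4 spots, and the array's 75th percentile was subtracted. An array carried 162570 spots with 4854 controls among them; 47.7% to 56.6% of probes were measured. The number of arrays limits the precision. The raw 75th percentile was 1581 to 1684 with 9 ng of RNA and 534 to 549 with 4 ng. Genes were named by RefSeq accession (27508 probes) or by the file (11921). The brightest probe represented a gene; with 3 or more of 6 arrays measured, it was tested with limma 3.58.1 in R 4.3.3, with Benjamini-Hochberg adjustment over 16413 genes and a threshold of 0.05. This test called 454 genes. Unless a block is named, the p-values measure the spread among the arrays of a group, each from another sort. They leave the pairing by sort unused, which the fit blocked by sort takes in.

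The members, lists and named genes were chosen with earlier results of these data known. Named were the members, every gene with a probe in the window, Eomes, a set of regulators and receptors (1 of which is not reported here), up to 4 called genes per list by size or the 2 brightest where none was called, and the 3 nearest profiles. Replicate numbers mark the same sort, age and RNA amount. Deviations from the group mean correlated between same-numbered samples at 0.81, 0.82 and 0.81. Correlations between differently numbered samples are not given beside these, so the pairing rests on the labels. On simulated data with 16413 genes, the test recovered 26% of genes changed by 1 and 55% of those changed by 2 on the log2 scale, with 4 false calls. The simulated noise was independent between arrays and lacked the part shared by same-numbered samples. These rates therefore check the code and do not describe the test on the paired data. Alternatives were other scalings, background corrections, probe rules, filters, blocks for sort and slide, and leaving out arrays or sorts (statmod 1.5.0, version 1.17.8 of the data.table package). Figures used Python 3.11.15, matplotlib 3.10.9 and pandas 2.3.3.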

Additional observations from a re-analysis of the deposited data

How the results depend on the processing

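Over 23 settings the Ifng difference ran from 0.58 to 0.86, with both ends among the fits that left out an array (0.86 without the Eomes+ array of sort 2). Some settings could not change it. Ifng has a single probe, measured on every array, so the rule for several probes and the filters left it at 0.70. Since Ifng was chosen on this contrast, nothing is read from its sign across settings. Tmevpg1 ran from 3.22 with normexp background correction to 4.93 within slide 3, and Mdm1 from 0.04 within slide 1 to 0.62 within slide 3. Slide 3 holds the arrays of sort 3, and slide 2 holds only the Eomes+ array of sort 2 and gives no value. Slide 1 holds both arrays of sort 1 and the Eomes- array of sort 2. Its values set the Eomes+ array of sort 1 against the mean of the Eomes- arrays of sorts 1 and 2. Within slide 1 the differences were 0.84 for Ifng and 3.96 for Tmevpg1. With the slide as a fixed block, Ifng was 0.84, Tmevpg1 4.38 and Mdm1 0.29; as a random block they were 0.77, 4.36 and 0.29. The replicate block cannot change a difference in this balanced design, so 0.70 for Ifng, 4.32 for Tmevpg1 and 0.29 for Mdm1 stayed by construction. Tmevpg1 and Mdm1 have no value when only genes measured on all 6 arrays are kept. The count of other locus genes called was 0 in 21 of 21 settings.

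Of the pathway genes, 4 were called higher and 7 lower as reported. With the replicate block the counts were 7 and 16, with the slide as a random block 7 and 13, and without the filter on dim probes 1 and 3. Scaling to the median of the array gave 2 higher. With 1 array or sort left out, 0 to 2 were called higher and 0 to 5 lower. Over all genes, 0 were called without sort 1 or 2, 69 without sort 3 and 1310 with the replicate block. Apart from fewer samples in the fits that left some out, the cause of these shifts was not tested. The replicate block added Fosl2, Bcl6 and Gbp3 to the higher and Prdm1, Foxp3, Socs1, Cxcl10, Iigp1, Tgtp1, Il17f, Il2, Tnf and Lta to the lower genes and removed Gm4951. Signal over background limits Tmevpg1 in Eomes- cells and both Mdm1 probes.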
